A study of Homo sapiens with 4 samples.

Results

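HGC-27 cells are an established line from a human gastric cancer, and recombinant IL-17B (rIL-17B) is a cytokine of the IL-17 family that binds the receptor IL-17RB. The genes described here are 8 of the 31907 gene names counted in 4 RNA-seq libraries of these cells: GJB2, NEB, NEMP1, FCRLB, TMEM52B, CCDC107, CCDC190 and the antisense RNA MEF2C-AS1. They were chosen by their measured difference between rIL-17B and PBS, a small p in edgeR where the rIL-17B pair lay wholly above or wholly below the PBS pair, so that the difference itself is given as a description. Cells received PBS (2 libraries) or 200 ng/ml rIL-17B (2 libraries) and were collected after 48 h. The labels name no other treatment, and nothing in them says that the libraries came from separate cultures, so that every p below measures only the spread between these libraries, which may be technical. All 8 genes were listed in every library and all 8 passed the filter on low counts among 16361 genes tested. Of the 8, 6 were lower and 2 were higher with rIL-17B. By the rule no libraries of the groups overlapped in them, whereas among all genes tested the rIL-17B pair lay wholly below the PBS pair in 30.4% and wholly above it in 28.5%, and nothing is read from this difference.

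The 8 genes belong to different families. GJB2 encodes connexin 26, a subunit of gap junction channels through which neighbouring cells exchange small molecules and ions. NEB encodes nebulin, the giant protein along the thin filament of the skeletal muscle sarcomere, and NEMP1 encodes a protein of the inner nuclear membrane. FCRLB belongs to the family of Fc receptor-like genes and is known from B cells, and TMEM52B encodes a transmembrane protein. CCDC107 and CCDC190 encode coiled-coil proteins of little known function. MEF2C-AS1 is a long non-coding RNA transcribed from the strand opposite to MEF2C, which encodes a transcription factor of muscle, neural and immune cells. MEF2C-AS1 shares 422 of its 7865 exon bases with MEF2C. Reads of such shared bases can be counted apart only if they keep their strand, which is not given in the sources used here.

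The sequences around the annotated starts of these genes were taken from RefSeq (GRCh38.p14), as windows of 300 bases that run from 250 bases before to 50 bases after a start. They are shown so that the starts of genes chosen for a like difference can be compared. Windows were found for 7 of the 8 genes, TMEM52B being the other, and 9 windows in all because FCRLB has 3. The windows of NEMP1 and CCDC190 lie inside the gene coordinates given below, which come from another annotation, GENCODE 29. The 5 windows below are those of the most abundant gene, of the antisense RNA, of GJB2 and of the lower genes with the largest difference and the longest exon sequence. Capitals mark the motifs searched on both strands, which are TATAA (the TATA box), CCAAT (the CCAAT box), GGGCGG (the GC box), TGACTCA (the AP-1 site) and, by name, the NF-κB site. Matches of different motifs may overlap.
NEMP1, chr12:57078742-57079041, minus strand: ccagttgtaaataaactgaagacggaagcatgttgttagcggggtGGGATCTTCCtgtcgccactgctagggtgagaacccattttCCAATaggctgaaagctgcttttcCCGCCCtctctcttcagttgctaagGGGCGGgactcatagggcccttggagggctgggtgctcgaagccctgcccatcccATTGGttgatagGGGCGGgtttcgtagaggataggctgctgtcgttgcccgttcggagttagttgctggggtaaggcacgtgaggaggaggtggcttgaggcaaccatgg
GJB2, chr13:20192889-20193188, minus strand: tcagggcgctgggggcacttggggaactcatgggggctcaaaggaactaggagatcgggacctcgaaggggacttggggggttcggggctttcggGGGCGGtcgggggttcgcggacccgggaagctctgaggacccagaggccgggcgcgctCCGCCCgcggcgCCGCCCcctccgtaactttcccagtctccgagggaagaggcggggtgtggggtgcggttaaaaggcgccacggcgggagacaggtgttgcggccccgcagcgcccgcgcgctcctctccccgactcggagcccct
MEF2C-AS1, chr5:88883080-88883379, plus strand: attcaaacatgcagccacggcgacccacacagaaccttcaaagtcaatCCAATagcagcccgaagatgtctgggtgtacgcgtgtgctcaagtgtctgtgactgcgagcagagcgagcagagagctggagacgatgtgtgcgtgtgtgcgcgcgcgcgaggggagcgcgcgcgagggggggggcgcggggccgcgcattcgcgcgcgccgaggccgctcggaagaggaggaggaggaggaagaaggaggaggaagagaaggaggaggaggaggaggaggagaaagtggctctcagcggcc
CCDC190, chr1:162861126-162861425, minus strand: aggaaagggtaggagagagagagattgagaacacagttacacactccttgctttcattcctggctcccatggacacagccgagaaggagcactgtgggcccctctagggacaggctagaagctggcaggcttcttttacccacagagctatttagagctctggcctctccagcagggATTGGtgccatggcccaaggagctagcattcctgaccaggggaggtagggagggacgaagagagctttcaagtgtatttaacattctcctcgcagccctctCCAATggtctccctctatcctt
NEB, chr2:151734427-151734726, minus strand: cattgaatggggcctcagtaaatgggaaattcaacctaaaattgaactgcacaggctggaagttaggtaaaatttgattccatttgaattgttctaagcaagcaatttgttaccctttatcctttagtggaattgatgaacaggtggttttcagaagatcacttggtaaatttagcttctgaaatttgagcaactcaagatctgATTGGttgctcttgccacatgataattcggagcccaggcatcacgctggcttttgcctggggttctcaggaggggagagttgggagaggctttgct

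The GJB2 window was the richest in G and C of the 9, at 71.7%, and held 33 CpG and 3 GC boxes. The MEF2C-AS1 window held 30 CpG in 64.3% G and C, whereas the NEB window held 2 CpG in 42.3% and the CCDC190 window 3 CpG in 53.7%. Over all 35116 windows of the table the median was 14 CpG. The CCAAT box was found in 6 of the 9 windows and in 34.6% of all windows. The NF-κB site was found only in the NEMP1 window among the 9 and in 11.3% of all windows. The AP-1 site was found in 1 FCRLB window and in 4.95% of all windows, the GC box in 3 of the 9 and in 45.0% of all, and the TATA box in the CCDC107 window alone and in 20.4% of all. No motif searched here occurred in the windows of all 7 genes. A match of letters describes the sequence and is not evidence that a factor binds it.

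The libraries held between 12888029 and 17555879 counts, so that 1 count was worth between 0.0570 and 0.0776 CPM, the count divided by the library total and multiplied by 1000000. At a floor of 3 counts the libraries could show between 0.171 and 0.233 CPM, which covers counting error only, since PCR copies were counted without molecular identifiers. rIL-17B replicate 1 stood apart from the other 3 libraries. It differed at least 2-fold from the PBS mean in 4061 of the 16361 genes, against 428 genes for rIL-17B replicate 2. The summed level of 7 mesenchymal markers, all detected in every library, was 34216 and 33523 CPM with PBS, 548 CPM in rIL-17B replicate 1 and 28365.5 CPM in rIL-17B replicate 2. Except in rIL-17B replicate 1, nearly all of this sum was FN1, at 33131 and 32458 CPM in the PBS pair against 149 and 27450.1 CPM with rIL-17B. VIM was at 727 and 706 against 279.8 and 615 CPM, and TWIST1 at 13.3 and 9.78 against 11.7 CPM in both rIL-17B libraries. In log2 ratio to the PBS mean, CDH2, ZEB1, ZEB2 and SNAI2 were at -1.19, -2.01, -2.63 and -1.64 in rIL-17B replicate 1. In rIL-17B replicate 2 they were at -0.19, -0.35, -0.26 and -0.26. The summed level of 15 gastric and gut epithelial markers was 806 and 816 CPM in the PBS pair and 1859 and 1034 CPM with rIL-17B. Most of it was KRT8, at 601.5 and 611 against 1457 and 787 CPM, and KRT18, and besides them only MUC1 reached 10 CPM. In the other direction KRT19 had 47 and 43 counts with PBS against 1 and 58 with rIL-17B, VIL1 had 58 and 35 against 0 and 51, and MUC6 had 14 and 16 against 7 and 19. The gastric markers were low, with TFF1 listed in no library, TFF2 and GKN1 at no more than 2 counts and MUC5AC at no more than 19. Because the labels' library protocol speaks of monocytes, 12 leukocyte markers were summed as well and came to 14.6 and 15.8 CPM in the PBS pair and 8.62 and 15.0 CPM with rIL-17B, with none at 10 CPM and 8 of the 12 at 0 in rIL-17B replicate 1. In that library CSF1R made up 8.14 of the 8.62 CPM, and it was higher with rIL-17B in both libraries, at 8.14 and 6.15 CPM against 3.90 and 5.59 CPM. The 8 skeletal muscle markers summed to between 4.11 and 6.98 CPM, none reached 10 CPM, and MYOD1 and MYOG were listed in no library. Of 6 keratinocyte markers, summing to between 14.7 and 17.8 CPM, KRT10 alone reached 10 CPM, and KRT5, KRT14 and DSG3 were listed in no library. The part of these marker levels in the differences below was not tested.

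**Figure D1:**
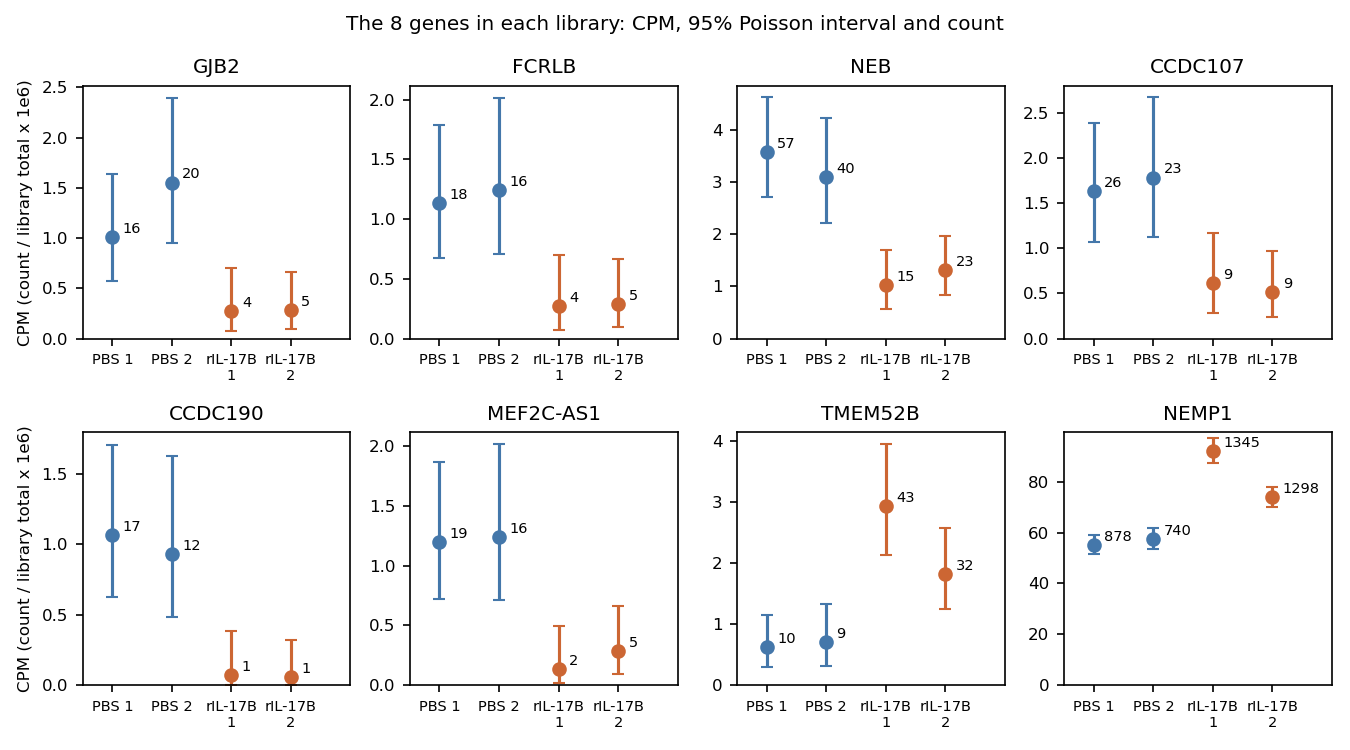
CPM (count divided by library total, times 1000000) of the 8 genes in the 2 PBS libraries (blue) and the 2 rIL-17B libraries (orange); bars are exact 95% Poisson intervals, which cover counting error only, and the number beside each point is the count. In every panel both rIL-17B points lie on the same side of both PBS points, and the bars of the 2 PBS libraries overlap each other for all 8 genes.

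NEMP1 (chromosome 12, 57055643 to 57088063, minus strand; exons of 5708 bases in all) was the only abundant gene of the 8. It had 878 and 740 counts in the PBS pair and 1345 and 1298 in replicates 1 and 2 of rIL-17B. This was 55.2 and 57.4 CPM in the PBS pair and 92.0 and 73.9 CPM with rIL-17B. Both rIL-17B libraries were thus above both PBS libraries, and replicate 1 was the higher of them by more than counting error. The mean was 56.3 ± 1.57 CPM in the PBS pair and 83.0 ± 12.8 CPM with rIL-17B (n = 2, SD). The closest rIL-17B and PBS libraries were 1.29-fold apart and the farthest 1.67-fold. The log2 fold change fitted by edgeR was 0.48 (SE, the standard error, 0.11), the smallest of the 8. In RNA from many cells, fewer cells with a transcript and less of it per cell cannot be told apart, which holds for all values here.

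TMEM52B (chromosome 12, 10170542 to 10191801, plus strand) was the other gene with more counts under rIL-17B. It had 10 and 9 counts in the PBS pair and 43 and 32 in replicates 1 and 2 of rIL-17B, or 0.629 and 0.698 CPM against 2.94 and 1.82 CPM. The groups did not overlap, although the counting intervals of rIL-17B replicate 2 and PBS replicate 2 did. Summed over libraries, the rate with rIL-17B was 3.53 times that with PBS, with an exact 95% interval of 2.11 to 6.19 for counting error alone. The log2 fold change was 1.75 (SE 0.40).

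CCDC190 (chromosome 1, 162824458 to 162868815, minus strand) showed the largest difference of the 8. It had 17 and 12 counts in the PBS pair and a single read, 1 count, in each rIL-17B library. In CPM this was 1.07 and 0.931 with PBS against 0.0684 and 0.0570 with rIL-17B, below the floor of 3 counts in both rIL-17B libraries. The ratio of rIL-17B to PBS was 0.0617, with a counting interval of 0.00714 to 0.244. The fitted log2 fold change of -3.91 (SE 0.60) depends on how such low counts are smoothed. This SE is narrower than the counting interval and understates the error. With DESeq2 the log2 fold change was -4.08 (SE 1.59).

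GJB2 and FCRLB had nearly the same numbers. GJB2 (chromosome 13, 20187463 to 20193010, minus strand) had 16 and 20 counts in the PBS pair and 4 and 5 in replicates 1 and 2 of rIL-17B. FCRLB (chromosome 1, 161721563 to 161728143, plus strand) had 18 and 16 counts in the PBS pair and again 4 and 5 with rIL-17B. The groups did not overlap for either gene, and the rIL-17B libraries were alike. GJB2 was at 1.28 ± 0.386 CPM in the PBS pair and 0.279 ± 0.00786 CPM with rIL-17B, and FCRLB at 1.19 ± 0.0776 and 0.279 ± 0.00786 CPM (n = 2, SD). An SD this small at 4 and 5 counts is below the counting error, whose 95% interval reached from 0.0746 to 0.701 CPM in rIL-17B replicate 1 for both genes. The log2 fold changes were -2.22 (SE 0.50) for GJB2 and -2.12 (SE 0.45) for FCRLB.

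MEF2C-AS1 (chromosome 5, 88883328 to 89466398, plus strand) was the non-coding member. It had 19 and 16 counts in the PBS pair and 2 and 5 in replicates 1 and 2 of rIL-17B, or 1.19 and 1.24 CPM against 0.137 and 0.285 CPM. Both rIL-17B libraries were below both PBS libraries, and the counting intervals of all 4 pairs of an rIL-17B with a PBS library were apart. The log2 fold change was -2.52 (SE 0.59). It was -2.07 without rIL-17B replicate 1 and -3.21 without rIL-17B replicate 2.

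NEB (chromosome 2, 151485336 to 151734487, minus strand) has exons of 30567 bases in all, the longest of the 8. It had 57 and 40 counts in the PBS pair and 15 and 23 in replicates 1 and 2 of rIL-17B, or 3.58 and 3.10 CPM against 1.03 and 1.31 CPM. The rIL-17B libraries lay below the PBS libraries by 2.37-fold to 3.49-fold. The log2 fold change was -1.57 (SE 0.36). Per kilobase of exon its level with PBS was only 0.109 CPM, the lowest of the 8.

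CCDC107 (chromosome 9, 35658290 to 35661511, plus strand) had 26 and 23 counts in the PBS pair and 9 counts in each rIL-17B library. In CPM this was 1.63 and 1.78 against 0.616 and 0.513, a log2 fold change of -1.66 (SE 0.37). The groups did not overlap, but the counting intervals were apart in only 2 of the 4 pairs of an rIL-17B with a PBS library, as for GJB2. For FCRLB and TMEM52B they were apart in 3 pairs, and for CCDC190, NEB, MEF2C-AS1 and NEMP1 in all 4.

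Per kilobase of exon the PBS levels were 9.86 CPM for NEMP1, 1.17 for CCDC107, 0.502 for GJB2, 0.458 for FCRLB, 0.232 for CCDC190, 0.190 for TMEM52B, 0.155 for MEF2C-AS1 and 0.109 for NEB. Between NEMP1 and the next gene lay a gap far beyond the spread of the PBS libraries, whereas GJB2 and FCRLB did not differ beyond it. With rIL-17B the order was NEMP1 at 14.5 CPM per kilobase, TMEM52B at 0.683, CCDC107 at 0.387, GJB2 at 0.110, FCRLB at 0.108, NEB at 0.0382, MEF2C-AS1 at 0.0268 and CCDC190 at 0.0145. Except for NEMP1, the genes had under 100 counts in every library, as had 29.8% of the genes tested. By mean TMM-normalized CPM, NEMP1 lay above 79.8% of the genes tested, TMEM52B above 14.3% and CCDC190 above 0.593%.

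**Figure D2:**
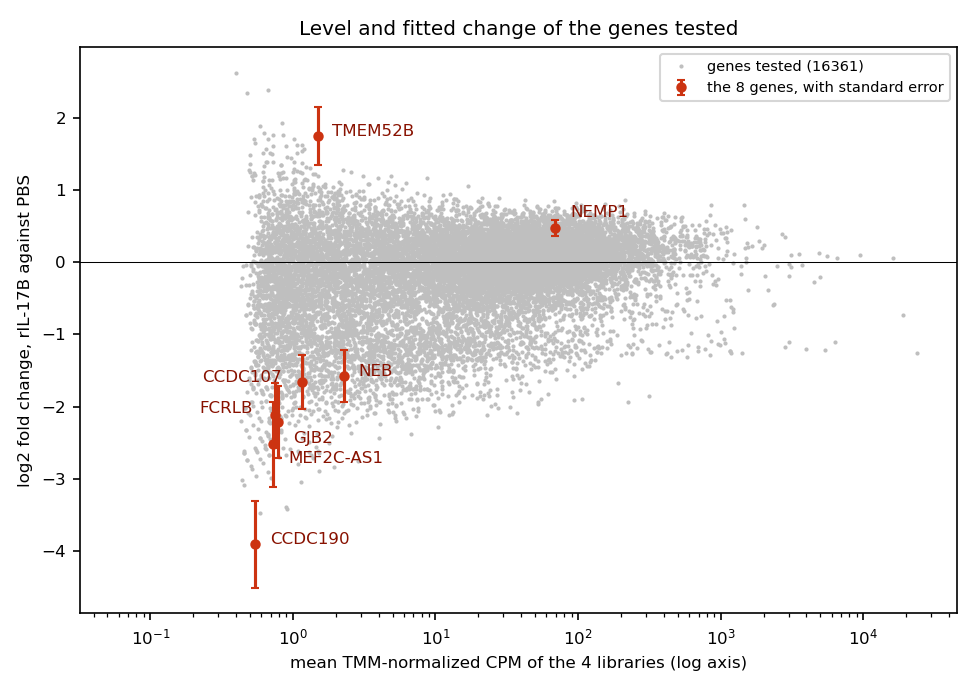
Log2 fold change of rIL-17B against PBS fitted by edgeR (y axis) against the mean TMM-normalized CPM of the 4 libraries (x axis, log scale) for the 16361 genes tested (grey) and the 8 genes (red, bars are standard errors). NEMP1 stands alone at a high level with a log2 fold change of 0.48, and the other 7 are at the low end of the range.

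The place of the 8 genes among the rest can be read from the order of p. With Benjamini-Hochberg adjustment of the p from edgeR's quasi-likelihood F test, 0 of the 16361 genes (0%) had an adjusted p under 0.05, and 0 of the 8. The smallest adjusted p over all genes was 0.661, and DESeq2 also called 0 genes. An unadjusted p under 0.05 together with libraries that did not overlap was found for 226 genes, which is 1.38% of those tested, and the 8 genes are among them by the rule. Without the limit on p, the libraries of the groups did not overlap in 9639 genes, so that being wholly on 1 side was common in these data. A small p did not by itself set the 8 apart, since some genes with a smaller p than members are not on the list.

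The unadjusted edgeR p of the 8 genes lay between 0.00387 for CCDC190 and 0.0157 for NEMP1. Ordered by p among the genes whose libraries did not overlap, CCDC190 was at place 1, FCRLB at 5, CCDC107 at 6, GJB2 at 9, NEB at 10, TMEM52B at 11, MEF2C-AS1 at 12 and NEMP1 at 13. The 5 other genes of the first 13 are not on the list. GINS1, which encodes a subunit of the GINS complex of DNA replication, had 192 and 162 counts in the PBS pair and 343 and 349 with rIL-17B, giving a log2 fold change of 0.74. AUNIP, whose protein binds Aurora kinase A and ninein, had 117 and 99 counts against 247 and 235, a log2 fold change of 0.93. Both were higher with rIL-17B at counts well above those of 7 of the 8 genes. The others were CU639417.1 (log2 fold change 0.70) and, lower with rIL-17B, the antisense RNA AL122010.1 (-1.46) and the pseudogene AC012618.3 (-2.62). Just past NEMP1, at place 14, came RAB11FIP4, named here after its values were seen, with 69 and 71 counts against 31 and 37 and a log2 fold change of -1.28.

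Since rIL-17B replicate 1 stood apart, each rIL-17B library was also set against the PBS mean on its own, in log2 of the CPM ratio. The values of replicates 1 and 2 were -3.87 and -4.13 for CCDC190, -2.12 and -2.06 for FCRLB, -2.22 and -2.17 for GJB2 and -1.47 and -1.74 for CCDC107. For these 4 genes both libraries lay about equally far from PBS. For NEB they were -1.70 and -1.35, for MEF2C-AS1 -3.15 and -2.10, for TMEM52B 2.15 and 1.46 and for NEMP1 0.71 and 0.39, farther in replicate 1 each time. Of the 4061 tested genes at least 2-fold from the PBS mean in replicate 1, 291 (7.17%) were at least 2-fold away in the same direction in replicate 2. Of the 8 genes 7 were 2-fold away in replicate 1, all but NEMP1, and the same 7 were so in replicate 2, which is what the choice by small p selects for. The median size of this ratio was 2.13 in replicate 1 and 1.90 in replicate 2 over the 8 genes, against 0.52 and 0.15 over all genes tested.

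Leaving rIL-17B replicate 1 out gave log2 fold changes of -3.96 for CCDC190, -2.12 for GJB2, -2.03 for FCRLB, -1.72 for CCDC107, -1.36 for NEB, 1.45 for TMEM52B and 0.39 for NEMP1. In that fit the lone rIL-17B library is assumed to vary like the PBS pair, and 504 of 17103 genes (2.95%) passed an edgeR adjusted p of 0.05. NEB and NEMP1 were among them, and the other 6 were not. Without rIL-17B replicate 2, 9489 of 17223 genes (55.1%) and all 8 of the list were past that threshold. The 8 were chosen on these same libraries, so that these calls are given as values and nothing is read from them.

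**Figure D3:**
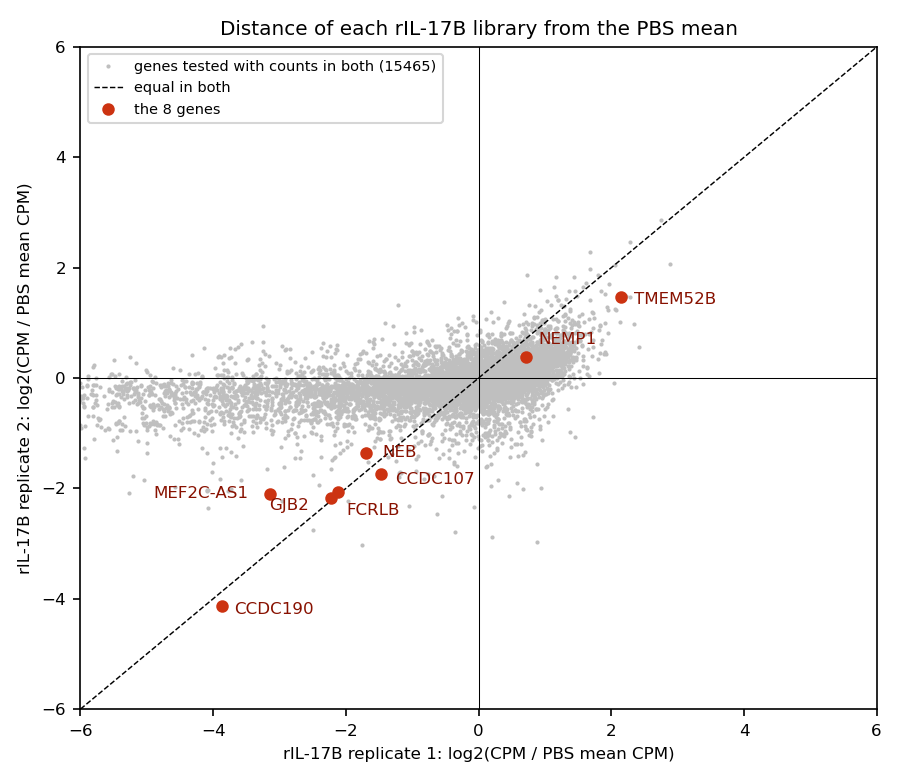
Log2 of CPM over the PBS mean CPM in rIL-17B replicate 1 (x axis) and replicate 2 (y axis); grey points are tested genes with counts in both libraries, of which 249 lie outside the axes, red points are the 8 genes, and the dashed line marks equal values. Most grey points spread along the x axis near 0 on the y axis, and the 8 genes lie near the dashed line.

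Neighbouring genes were not used in the choice and show what happened around each of the 8. Every counted gene that overlaps one of them, or lies next to it within 100000 bases in GENCODE 29 (GRCh38), was taken, which gave 16 genes, 12 of them tested. None had an adjusted p under 0.05 in edgeR, where the background is 0%, DESeq2 gave none either, and GJA3 alone had an unadjusted p under 0.05. The median log2 fold change of the 12 was -0.08, against -0.03 over all genes tested. Both rIL-17B libraries were above both PBS libraries in 3 of the 12, below in 4 and overlapping in 5, on the TMM scale used for all such counts here. Over all genes tested the shares were 28.5% above and 30.4% below, so that these counts set nothing apart about the neighbours.

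At the GJB2 locus the next counted gene, 26414 bases away on the same strand, is another connexin gene. GJA3, which encodes connexin 46 of the lens, had 22 and 12 counts in the PBS pair and 1 and 5 in replicates 1 and 2 of rIL-17B. It was lower in both rIL-17B libraries, as GJB2 was, with a log2 fold change of -2.67 (SE 0.82, adjusted p = 0.661 in edgeR). At the FCRLB locus the neighbour 7211 bases away is its relative FCRLA. FCRLA had 53 and 60 counts with PBS, 0 counts in rIL-17B replicate 1 and 29 counts in replicate 2, a log2 fold change of -2.25 (SE 1.69, adjusted p = 0.661 in edgeR). Without rIL-17B replicate 1 it was -1.26 (SE 0.38, adjusted p = 0.0336 in edgeR with 2.95% of 17103 genes called), the only neighbour called in that fit. DUSP12 on the other side of FCRLB, a phosphatase gene, had 23.8 and 29.5 CPM in the PBS pair and 24.5 and 23.6 CPM with rIL-17B, and was below PBS in both only after TMM scaling.

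Where a neighbour overlaps, reads of the shared part cannot be told apart without strand. MEF2C, which shares 422 exon bases with MEF2C-AS1, had 361 and 291 counts in the PBS pair and 456 and 363 with rIL-17B, and its groups overlapped (log2 fold change 0.11, SE 0.21). MEF2C was above PBS in rIL-17B replicate 1 and below it in replicate 2, while the antisense RNA was lower in both. ARHGEF39, a gene for a guanine nucleotide exchange factor, lies on the opposite strand over CCDC107 and shares 1111 of the 1459 exon bases of CCDC107. It had 160 and 124 counts in the PBS pair and 270 and 200 with rIL-17B, higher in both, while CCDC107 was lower in both, and its log2 fold change was 0.52 (SE 0.27, adjusted p = 0.661 in edgeR). RIF1, a gene of DNA repair and replication timing that shares 166 exon bases with NEB, was at 110.3 and 109 CPM in the PBS pair and 129.9 and 109.9 CPM with rIL-17B, and its groups overlapped. OLR1, the gene of an oxidized LDL receptor, overlaps TMEM52B on the opposite strand without shared exon bases. It had 90 and 58 counts in the PBS pair and 165 and 131 with rIL-17B, higher in both as TMEM52B was (log2 fold change 0.80, SE 0.30, adjusted p = 0.661 in edgeR).

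The other neighbours lay on either side of PBS or overlapped with it. GABARAPL1, an autophagy gene of the ATG8 family 20657 bases from TMEM52B, had 108.5 and 94.0 CPM in the PBS pair and 93.7 and 105.6 CPM with rIL-17B, with overlapping groups. NAB2, a co-repressor gene 831 bases from NEMP1, was at 27.7 and 26.5 CPM in the PBS pair and 19.8 and 24.8 CPM with rIL-17B, on the opposite side to NEMP1. CA9 near CCDC107 had 14 counts in each PBS library and 33 and 24 with rIL-17B. HSD17B7 near CCDC190 had a log2 fold change of -0.06, with overlapping groups. AL392003.2, SIT1, CLEC7A and MYO1A had at most 8 counts in any library and were not tested.

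The families and structures to which 5 of the genes belong were described from lists written by hand, of which 74 genes were tested. None of the 74 had an adjusted p under 0.05 in edgeR (background 0%) or in DESeq2, and GJA3 alone had an unadjusted p under 0.05 in edgeR. Of 24 genes of connexins, pannexins and their scaffold, 8 were tested, 1 above PBS in both rIL-17B libraries, 4 below and 3 overlapping (28.5% above and 30.4% below over all genes tested), with a median log2 fold change of -0.18. GJB6, the connexin gene often studied with GJB2, was listed in no library. TJP1, the gene of the junction scaffold ZO-1, had a log2 fold change of -0.20. Of 21 Fc receptor genes 5 were tested, 3 of them below PBS in both rIL-17B libraries and 0 above, beside 30.4% and 28.5% of all genes. Their median log2 fold change of -1.12 rested on rIL-17B replicate 1, where 3 of the 5 had 0 counts, and the median log2 ratio to the PBS mean was -0.28 in replicate 2 alone. Besides FCRLA, FCGR2A (25 and 18 counts with PBS, 0 and 18 with rIL-17B) and TRIM21 (-0.19) had the smallest p.

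For the inner nuclear membrane, the lamina beneath it and the LINC complex across both nuclear membranes, the structures around NEMP1, 24 of 25 listed genes were tested. Of these 12 were above PBS in both rIL-17B libraries, 4 below and 8 overlapping, where 28.5% of all genes were above and 30.4% below. The median log2 fold change was 0.16 against -0.03 over all genes tested. The median log2 ratio to the PBS mean was 0.37 in replicate 1 and 0.06 in replicate 2, against 0.09 and 0 over all genes tested. The list also holds LPCAT3 (0.36), which is a gene of none of these structures. The lamin genes LMNB2 (0.50, SE 0.21) and LMNB1 (0.53, SE 0.24) and TMPO, a lamina-associated gene (0.47, SE 0.20), had the smallest p, all at 0.661 as edgeR's adjusted p. In these 3 genes replicate 1 was far above replicate 2, as for LMNB1 with 238 and 144 CPM against 124 and 126 CPM with PBS. NEMP2, the paralogue of NEMP1, had 8.93 and 9.08 CPM in the PBS pair and 12.6 and 9.29 CPM with rIL-17B. Of 37 genes listed under the nebulin family and the sarcomeric actin filament 26 were tested, with 11 above, 8 below and a median of 0.01. This list also holds genes of the general cytoskeleton, among them TMOD3, LIMCH1 and ACTN4. Its smallest p were those of TMOD3 (0.38), ACTC1 (0.85) and LIMCH1 (0.63), all higher. All lay farther from the PBS mean in replicate 1, as for ACTC1 with log2 ratios of 1.37 and 0.33 in replicates 1 and 2. NEBL, the relative of NEB, was at 8.61 and 8.85 CPM in the PBS pair and 13.7 and 9.23 CPM with rIL-17B. Of 13 genes listed under MEF2 factors and their deacetylases 11 were tested, 4 above and 4 below, with a median of 0.01. That list also holds MAPK7, NR4A1, KLF2 and KLF4, which are neither. HDAC9 (-0.33), KLF4 (0.26) and MEF2A (-0.37) had its smallest p.

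IL17RB, the gene of the receptor for the ligand used, had 86 and 61 counts in the PBS pair and 96 and 106 in replicates 1 and 2 of rIL-17B. Both rIL-17B libraries were above both PBS libraries, at 6.57 and 6.04 CPM against 5.41 and 4.73 CPM. The log2 fold change of 0.24 (SE 0.24, adjusted p = 0.68 in edgeR) did not pass the threshold.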

How the data were processed

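RNA-seq of HGC-27 cells (2 PBS and 2 rIL-17B libraries, Smart-seq2, primed with oligo-dT, PCR-amplified) was analysed from the deposited counts, whole reads per gene name without normalization, made by the authors. The submitters' processing notes name hg38, Bowtie2 2.2.3, HISAT2 2.1.0, TopHat2 and HTSeq 0.6.0; their roles, the annotation and the strand setting are not given in the sources used here. Genes missing from a library were given 0 counts. Names repeated with the same count were used once, and 22 to 25 names per library turned into date numbers (at most 0.244% of counts) were left out. Of the names, 97.84% occur once in GENCODE 29.

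The 8 genes, the lists and the tests were chosen with earlier results of these data known. Differences were fitted over all genes with edgeR 4.0.16 in R 4.3.3 (TMM factors 0.97 to 1.07, filterByExpr, quasi-likelihood F test, Benjamini-Hochberg, threshold 0.05); the standard error is the log2 fold change over the square root of F. The fit was tested only on simulated data with a spread like that of the PBS pair and changes in genes of higher counts. That test does not cover very low counts or a library that stands apart. Poisson and ratio intervals at 95% came from scipy 1.17.1. Alternatives were DESeq2 1.42.0, other normalizations and filters, a replicate block and leaving out each library. An exact permutation test of 2 against 2 libraries cannot reach 0.05 and was not used. Named beside the 8 genes were the 5 others with the smallest p and libraries apart, their neighbours, the 3 smallest p per list, MEF2C, NEMP2, FCRLA, GJB6, NEBL, IL17RB, and markers at 10 CPM. A neighbouring gene and a gene of the lists that this rule names are not reported here.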

Additional observations from a re-analysis of the deposited data

How the results depend on the processing

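The count of 0 genes past an adjusted p of 0.05 was also 0 with DESeq2, with DESeq2 size factors, upper-quartile factors or library totals alone, with no filter, with a minimum of 10 counts in each library, with a replicate block and at an adjusted p of 0.1. Genes with an unadjusted p under 0.05 numbered 226, against 879 with no filter, 462 with the count minimum, 457 with DESeq2, 173 with the block and 2 without either PBS library. Leaving out each library in turn gave from 0 genes past the threshold (each PBS library) to 504 (without rIL-17B replicate 1) and 9489 (without rIL-17B replicate 2), 0 to 8 of the 12 neighbouring genes tested and 0 to 53 of the genes of the lists. The highest of each came without rIL-17B replicate 2, where 53 of 76 list genes stood beside 55.1% of all 17223 genes tested. The genes with rIL-17B and PBS libraries apart, 9639 with all libraries, were 12426 to 15496 with 3 libraries, where fewer libraries can overlap, and the 8 genes were 7 to 8 of these. CCDC190 was not tested without PBS replicate 1.

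All 8 genes kept their direction wherever they were tested, with the replicate block as well. The choice of genes with libraries apart all but fixed this beforehand, so that nothing is read from it. The minimum of 10 counts in every library left 2 of the 8 genes, NEB and NEMP1. The deviations of libraries with the same number correlated at 0.0815 over 16361 genes. This value cannot decide whether libraries of the same number were paired, because rIL-17B replicate 1 stood apart. The fold changes of CCDC190, FCRLB, GJB2 and MEF2C-AS1 rest on counts of 1 to 5 per rIL-17B library. At such counts edgeR's standard errors can understate even the counting error, as for CCDC190 and FCRLB. The standard errors depend on the method, and those of DESeq2 were larger than edgeR's for all 8 genes. They were 1.59 for CCDC190, 1.09 for FCRLB, 1.11 for GJB2 and 1.22 for MEF2C-AS1. For CCDC107 DESeq2 gave 0.87, for TMEM52B 0.84, for NEB 0.68 and for NEMP1 0.17.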
